A study of Homo sapiens with 35 samples.

Results

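Open chromatin at 9 genes of the JAK-STAT pathway was read from a list of ATAC-seq peaks of blood progenitors. The cells had been differentiated from H1, a widely used line of human embryonic stem cells. The genes were chosen by name for their roles, with earlier results of these data known. Chosen were the kinases JAK1 and JAK2, the transcription factors STAT3, STAT5A and STAT5B, and the feedback inhibitors SOCS1, SOCS2, SOCS3 and CISH. They are 9 of 19974 protein-coding genes, and all 9 were found in the RefSeq gene table. Peaks over each gene, within 1 kb of its ends and up to 50 kb away came to 288 distinct peaks of the 308732 in the list.

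In ATAC-seq, a transposase cuts accessible DNA and inserts sequencing adapters. The labels describe 35 libraries: 12 from cultures of a line named doxee17 given doxycycline, which turns on ectopic MYC, 11 from doxee17 without it (both batch 1) and 12 from untreated H1 (batch 2), sampled on 6 days from day 10 to day 20. The design text counts 44 libraries. What the name doxee17 stands for, whether it is a single clone, and which libraries entered the peak list are not given in the sources used here. The list holds 1 value per peak and none per library, so no comparison of doxycycline, day or line was possible, no replicate error exists, and a peak may come from a part of the libraries.

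Cytokines such as erythropoietin, thrombopoietin and interleukin-3 bind receptors that carry JAK kinases on their inner side. The kinases phosphorylate the receptor and the STAT proteins, which pair up, enter the nucleus and bind DNA at the palindrome TTCNNNGAA. CISH and the SOCS genes are among the genes that STATs switch on, and their proteins bind receptors or kinases and dampen the signal. Blood progenitors use this pathway for survival, growth and lineage output.

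The bases before the annotated starts are shown first, because those of CISH differed from those of the other members searched in their STAT motifs. RefSeq windows of GRCh38.p14, each reaching from 250 bases before to 50 bases after a start, were held for 8 members (16 starts). SOCS2 had no entry. Each sequence below is the 250 bases before 1 start, read 5′ to 3′ on the gene's strand, which is the minus strand for all of them. Capitals mark TTCNNNGAA (the STAT motif) and CCGGAA (a core bound by ETS factors, sought on both strands). The ETS core in CISH overlaps the STAT motif nearest to the start, and the SOCS1 and STAT5B sequences hold neither motif.
CISH, chr3:50611775-50612024: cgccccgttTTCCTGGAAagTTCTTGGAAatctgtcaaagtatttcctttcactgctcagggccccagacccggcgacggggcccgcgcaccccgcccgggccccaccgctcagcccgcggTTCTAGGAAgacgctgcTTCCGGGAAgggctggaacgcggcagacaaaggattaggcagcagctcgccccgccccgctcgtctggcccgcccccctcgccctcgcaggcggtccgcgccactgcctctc
SOCS1, chr16:11256205-11256454: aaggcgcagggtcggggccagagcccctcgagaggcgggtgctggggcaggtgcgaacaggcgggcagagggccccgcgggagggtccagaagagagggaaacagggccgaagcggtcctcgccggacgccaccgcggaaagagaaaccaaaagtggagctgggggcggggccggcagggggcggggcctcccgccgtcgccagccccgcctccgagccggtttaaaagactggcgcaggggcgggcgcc
SOCS3, chr17:78360926-78361175: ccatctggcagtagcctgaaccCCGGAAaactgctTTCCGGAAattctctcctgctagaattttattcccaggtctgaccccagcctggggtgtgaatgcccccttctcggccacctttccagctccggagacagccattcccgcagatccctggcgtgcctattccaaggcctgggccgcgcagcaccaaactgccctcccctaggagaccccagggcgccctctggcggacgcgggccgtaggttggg
STAT3, chr17:42388443-42388692: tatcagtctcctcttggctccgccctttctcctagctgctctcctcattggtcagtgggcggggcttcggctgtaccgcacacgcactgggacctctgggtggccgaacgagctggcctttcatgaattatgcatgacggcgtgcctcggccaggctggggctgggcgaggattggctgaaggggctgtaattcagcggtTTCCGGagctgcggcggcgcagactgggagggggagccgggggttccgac
STAT5B, chr17:42276392-42276641: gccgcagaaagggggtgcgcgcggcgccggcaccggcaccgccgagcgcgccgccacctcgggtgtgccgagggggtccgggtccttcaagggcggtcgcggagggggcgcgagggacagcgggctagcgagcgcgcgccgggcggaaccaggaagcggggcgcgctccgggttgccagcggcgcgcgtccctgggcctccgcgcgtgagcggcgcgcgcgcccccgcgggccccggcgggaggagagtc
JAK1, chr1:65067747-65067996: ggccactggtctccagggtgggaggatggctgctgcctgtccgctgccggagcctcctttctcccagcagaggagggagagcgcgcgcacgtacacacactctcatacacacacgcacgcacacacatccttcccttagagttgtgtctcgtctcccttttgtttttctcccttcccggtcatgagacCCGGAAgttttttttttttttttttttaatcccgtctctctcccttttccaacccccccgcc

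CISH, the founding member of the SOCS family, held 4 matches to TTCNNNGAA, and the windows of the other 7 members with an entry held none. The 4 matches begin 241, 230, 129 and 112 bases before the start and read TTCCTGGAA, TTCTTGGAA, TTCTAGGAA and TTCCGGGAA. All 4 lay under the CISH peak, 49, 38, 63 and 80 bp from its summit (the position of highest signal). That peak is shared with the neighbouring gene MAPKAPK3. Of 22132 windows of coding genes, 6.79% held the motif at least once, 0.0316% held 3 or more and 0.0226% held 4 or more. The STAT6-type palindrome, which has a spacer of 4 in place of 3 bases between its arms, occurred once among the members, 229 bases before the outermost start of STAT5A (5.44% of all windows). Bases outside the windows were not searched. Among these are the bases at the SOCS3 summit, 713 and 545 bp from its annotated starts, and at the summit 791 bp from the outer JAK1 start.

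Other motifs were sought in the same windows on both strands, where a match describes letters and not a bound factor. CCGGAA occurred in 5 of the 16 member windows (21.2% of all windows): once in CISH, in STAT3 and before 2 starts of JAK1, and 3 times in SOCS3, 2 of them overlapping. GGGCGG, the GC box, occurred in 7 of 16 windows (56.3% of all windows), with 6 matches, some overlapping, before the innermost JAK1 start. CCAAT occurred in the STAT3 window alone, where it had 2 matches (34.6% of all windows held it). CACGTG, the E-box that MYC and MAX bind (8.34% of all windows), AGATAA, bound by GATA factors (7.88%), and TATAAA, the TATA box (9.46%), occurred in 0 of the 16.

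Peak heights are the authors' fold enrichment at the summit over the background of the peak caller. Fold and p-value imply a background of 93.5 overlapping reads or fragments for the whole genome, which turns each fold into a count. The 95% intervals given here are exact Poisson intervals on that count and cover counting error only. Each gene was given the highest peak with its summit within 1 kb of an end. By this measure all 9 members had a peak (83% of all coding genes did), and all 9 stood above the median of all coding genes of 43.5-fold (50% did). Above the upper quartile of 111.7-fold stood 5 of the 9 (25% did). The summits were often not at the ends themselves: within 0.5 kb of an end, 4 of the 9 had one (72.6% of coding genes).

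STAT3 and CISH had the highest end peaks of the 9. STAT3, which relays interleukin-6 and G-CSF signals, reached 296.6-fold (95% interval 293.2 to 300.1), with the summit 215 bp before its start. CISH reached 296.5-fold (293.047 to 300.001), with the summit 188 bp before its start. That peak is shared with MAPKAPK3, and its summit is 85 bp from the nearest annotated start of any gene. The count ratio of STAT3 to CISH was 1.00 (95% interval 0.984 to 1.02), and 0.816% of coding genes had a higher end peak than CISH. JAK2, the kinase used by the receptors for erythropoietin and thrombopoietin, reached 161.9-fold (159.4 to 164.5). SOCS2, an inhibitor of growth hormone signalling, reached 157.3-fold (154.8 to 159.9). Their count ratio was 1.03 (1.01 to 1.05).

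SOCS3, which restrains receptors that contain gp130, reached 130.9-fold (128.6 to 133.3). SOCS1, which blocks JAK kinases directly, reached 92.9-fold (91.0 to 94.9). The lowest 3 lay close together: STAT5B at 63.7-fold (62.1 to 65.4), STAT5A at 61.4-fold (59.8 to 63.0) and JAK1 at 58.5-fold (57.0 to 60.1). Each of these 3 stood between the 55.2nd and the 57.2nd percentile of coding genes, whereas STAT3 and CISH stood at the 99.2nd. By these end peaks STAT5B exceeded STAT5A by a count ratio of 1.04 (1.002 to 1.08) and STAT5A exceeded JAK1 by 1.05 (1.01 to 1.09), while their single intervals overlapped. The order of the 2 STAT5 genes rests on the measure. The summit counted for STAT5B is 58 bp from a STAT5A start, and the peak counted for STAT5A is shared with STAT3. By annotated starts, STAT5A exceeded STAT5B by a count ratio of 2.12 (2.03 to 2.22).

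**Figure D1:**
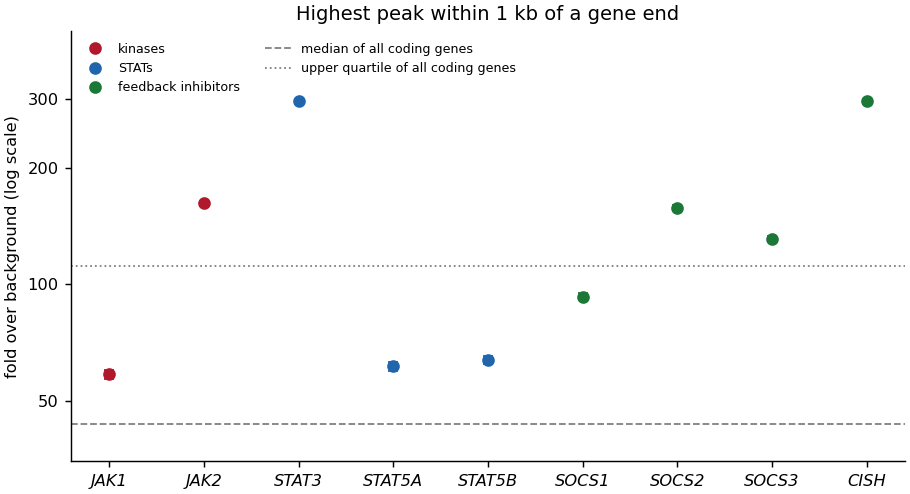
Highest fold enrichment (log scale) of a peak with its summit within 1 kb of either end of each member, coloured by role, with exact Poisson 95% intervals of the count that are mostly narrower than the points. STAT3 and CISH lie near 296-fold, and JAK1, STAT5A and STAT5B lie between 58.5 and 63.7-fold, above the median of all coding genes (dashed line, 43.5-fold) and under the upper quartile (dotted line, 111.7-fold).

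By role, the 4 feedback inhibitors had a median end peak of 144.1-fold (range 92.9 to 296.5), the 2 kinases 110.2-fold (58.5 to 161.9) and the 3 STATs 63.7-fold (61.4 to 296.6). The ranges of the 3 roles overlapped. With 2 to 4 genes per role in 1 peak list no test of the roles was made. Within the kinases, the end peak of JAK2 was 2.77 times that of JAK1 in counts (2.68 to 2.85). Within the STATs, that of STAT3 was 4.65 times that of STAT5B (4.53 to 4.79). These ratios hold for end peaks: JAK1 had 119.5-fold at its internal starts, and STAT5B had 30.1-fold at its annotated start. By annotated starts, the medians were 140.7-fold for the kinases and 130.9-fold for the inhibitors without SOCS2, the opposite order. Within the inhibitors, CISH exceeded SOCS2 by 1.88 times (1.85 to 1.92), SOCS3 by 2.26 times (2.22 to 2.31) and SOCS1 by 3.19 times (3.12 to 3.27).

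The end peaks of all 4 inhibitors were wide, and 3 of the 4 stood above the upper quartile of height, with SOCS1 under it. The end peak measured 16316 bp at CISH (chr3:50598421-50614736), 9538 bp at SOCS1 (chr16:11248350-11257887), 9089 bp at SOCS3 (chr17:78352461-78361549) and 5118 bp at SOCS2 (chr12:93569062-93574179). All 4 were wider than 5 kb, which held for 4.41% of the end peaks of coding genes, whose median width was 1927.5 bp. Outside the inhibitors, only the STAT5A end peak was wider than 5 kb (6117 bp), and STAT5B (3856 bp), JAK1 (3577 bp), JAK2 (3087 bp) and STAT3 (2493 bp) were narrower. The 6117 bp peak has its summit past the 3′ ends of STAT5A and STAT3 and is shared by both. In the whole list, 0.553% of peaks were wider than 5 kb and 0.0139% were at least as wide as the one at CISH.

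SOCS1, SOCS3 and CISH lay wholly under these peaks. They are short genes of 1788, 4148 and 5286 bp, and of coding genes of at most 6 kb 12.4% lay wholly under peaks (2.46% of all coding genes). SOCS2, which RefSeq draws over 56268 bp, was covered to 17.3%. The longer STAT and kinase genes were covered to between 3.26% (JAK2) and 29.3% (STAT3), beside a median of 12.6% over all coding genes. The 3 members wholly under peaks are the shortest of the 9, and among the longer ones coverage followed no order of length. The part of length in these values was not tested.

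Over the gene and 50 kb on each side, CISH had the highest coverage of the 9. Peaks covered 69.9% of its locus, and 8 of 19974 coding genes (0.0401%), CISH among them, had coverage at least as high. The CISH locus includes peaks inside the neighbouring genes MAPKAPK3, HEMK1 and C3orf18. SOCS3 followed with 41.0% (95.2nd percentile) and SOCS1 with 39.3% (94.3rd percentile). STAT3 had 32.0%, STAT5A 28.0% and STAT5B 24.9%, loci that overlap one another. JAK1 with 15.5% and SOCS2 with 10.6% lay near the median of 12.96% over coding genes, and JAK2 with 4.75% lay at the 16.3rd percentile. Above the upper quartile of 22.9% stood 6 of the 9 (25% of coding genes). The lowest 3 values were thus those of both kinases and of SOCS2.

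**Figure D2:**
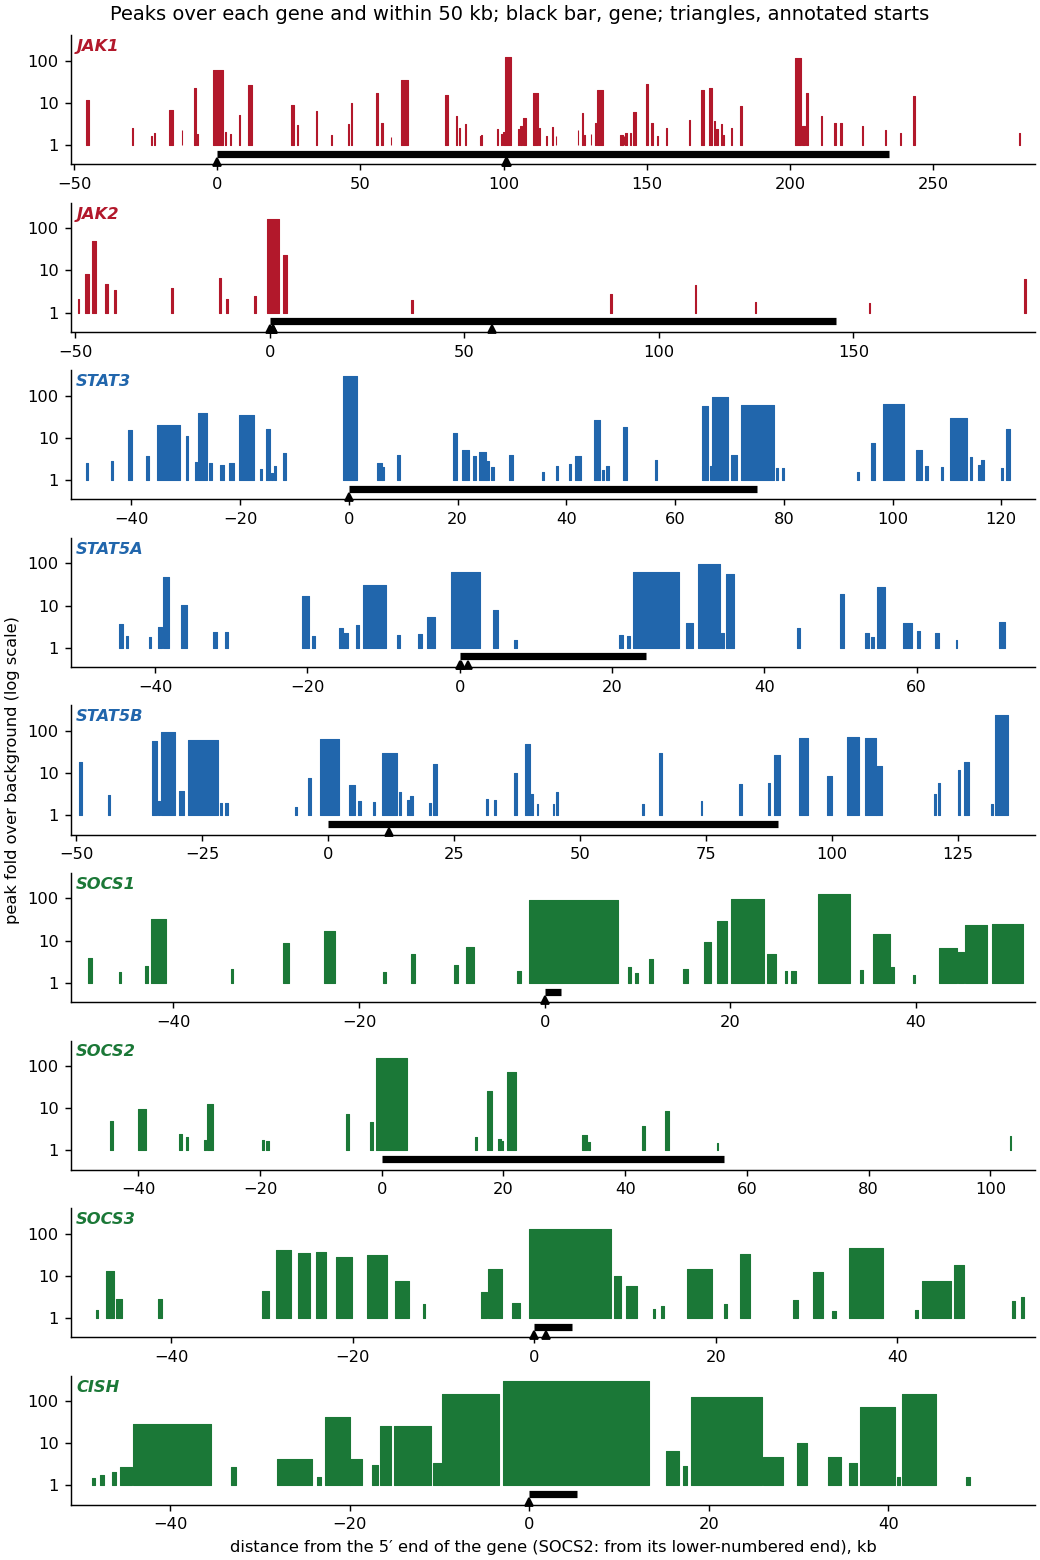
All peaks over each member and within 50 kb, drawn from the start of each peak to its end at the height of its fold enrichment (log scale), against the distance from the 5′ end of the gene in kb (SOCS2 from its lower-numbered end); the black bar is the gene and triangles are annotated starts. Peaks fill 69.9% of the CISH locus and 4.75% of the JAK2 locus, and the highest JAK1 peak stands at the internal starts.

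JAK1, the kinase shared by interferon and gp130 receptors, lies at chr1:64833229-65067746 on the minus strand, a gene of 234518 bp. It held 77 peaks within its span and flanks, 65 of them inside the gene and away from its ends. Its highest peak was not at the outer start. RefSeq places 2 further starts 100.8 and 101.2 kb into the gene, and a 119.5-fold peak (117.3 to 121.8) had its summit 43 bp inside the gene from the innermost one (chr1:64965153-64967224). Its count was 2.04 times that at the outer start (1.98 to 2.11). A second peak, 112.6-fold (chr1:64863900-64865978), lay inside the gene 203.5 kb from the outer start and at no annotated start of JAK1. Most of the 77 were low: 53 stood under 5-fold and 9 above 20-fold.

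The windows at the JAK1 starts differed in composition. The GC content was 52.7% at the outer start, 41.7% at the second and 74.7% at the innermost, beside a median of 62.3% over coding windows. CpG pairs numbered 15, 9 and 43, beside a median of 21.

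JAK2, at chr9:4984390-5129948 on the plus strand, had few peaks besides its promoter. Its 161.9-fold peak (chr9:4983554-4986640) spanned the 3 outer starts, with the summit 65 bp inside the gene from the second of them. The innermost annotated start, 57.1 kb into the gene, lay under no peak. Only 17 peaks lay over JAK2 and within 50 kb, or 1 per 14.4 kb, against 1 per 4.34 kb for JAK1. The next highest were a 48.6-fold peak 45.1 kb upstream (chr9:4938684-4939765), in no annotated gene, and a 23.2-fold peak 3.68 kb inside the gene. All others stood under 10-fold, with 8.03-fold the highest of them.

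STAT5B, STAT5A and STAT3 lie side by side on chromosome 17 (42199177 to 42288370, 42287439 to 42311943 and 42313324 to 42388442), so several of their peaks serve for more than 1 gene. The 63.7-fold peak counted for STAT5B (chr17:42286263-42290118) has its summit 70 bp outside the 5′ end that RefSeq gives that gene. The same summit is 58 bp before the innermost annotated start of STAT5A. At the annotated STAT5B start, 11.98 kb further into that gene, the peak was 30.1-fold (29.0 to 31.2), with its summit 30 bp inside. That is under the median of 56.2-fold over coding genes by their highest annotated start, which 7 of the 8 members with a window exceeded. By starts, STAT5A exceeded STAT5B by a count ratio of 2.12 (2.03 to 2.22).

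The peak counted for STAT5A by its ends was a different one. The 61.4-fold peak (chr17:42310172-42316288) has its summit 0.537 kb past the 3′ end of STAT5A and 0.844 kb from the 3′ end of STAT3, so it is shared by both. The 63.7-fold peak at the STAT5A promoter missed the 1 kb window by 1 bp, with its summit 1001 bp from the annotated gene end. Just inside the window, the SOCS2 summit lay 967 bp and the JAK1 summit 791 bp from an end. The other summits just outside it were low, 1.52-fold at 1077 bp for SOCS2 and 2.31-fold at 1122 bp for JAK1.

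STAT3 carried strong peaks at both ends of the gene. Besides the 296.6-fold promoter peak (chr17:42386956-42389448) and the 61.4-fold peak at its 3′ end, a 94.1-fold peak (chr17:42318769-42321562) and a 56.1-fold peak (chr17:42322415-42323427) lay in the last part of the gene, 68.4 and 65.5 kb from the start. Upstream of STAT3, peaks of 35.6-fold and 38.9-fold lay 17.8 and 26.8 kb away, inside the neighbouring gene CAVIN1. The highest peak within 50 kb of STAT5B, 233.0-fold, lay at an end of RAB5C, 44.0 kb beyond its 3′ end. No value here tells which of the 3 genes a shared peak acts on. The 94.1-fold peak inside STAT3 was also the highest distal peak for STAT5A and STAT5B.

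SOCS1 (chr16:11254417-11256204, minus strand) had its 92.9-fold summit 5 bp before its start. A pair of peaks downstream were higher: 127.2-fold (chr16:11223279-11226755), 30.1 kb past the 3′ end inside the long noncoding RNA gene LOC107984859, and 96.9-fold (chr16:11232564-11236089), 21.1 kb past it in no annotated gene. Upstream, the highest was 33.1-fold at 41.5 kb. Of its 6 distal peaks above 20-fold, 5 lay on the 3′ side.

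SOCS3 (chr17:78356778-78360925, minus strand) had its 130.9-fold summit 713 bp inside the gene, between its 2 annotated starts. The nearest annotated start of any gene was 236 bp from that summit. The distal peaks of SOCS3 were lower, at most 46.2-fold. Downstream, a 46.2-fold peak lay 32.1 kb past the 3′ end inside the noncoding gene LOC105371912. Upstream, inside the coding gene PGS1, peaks of 28.0, 35.5, 34.2 and 41.4-fold lay 20.96, 23.4, 25.6 and 27.8 kb from the start. A further peak of 30.4-fold, 17.6 kb away, had its summit 83 bp from the annotated start of PGS1.

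SOCS2 (chr12:93569969-93626236) had its 157.3-fold summit 967 bp inside its lower-numbered end, where SOCS2-AS1 also lies. Its next peaks, 24.9-fold and 70.3-fold, lay inside the gene 17.8 and 21.7 kb from that end. On the other side of the gene, past its higher-numbered end, the list held 1 peak within 50 kb, of 2.14-fold.

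CISH (chr3:50606489-50611774, minus strand) overlaps the start of MAPKAPK3, a kinase gene, so the 296.5-fold peak is shared by both genes. Its neighbours were also strong. A 145.3-fold peak of 6269 bp (chr3:50615200-50621468) had its summit 5.15 kb upstream of CISH, inside MAPKAPK3 and 226 bp from a start of that gene. A 125.0-fold peak of 7940 bp (chr3:50585847-50593786) lay 15.8 kb past the 3′ end, inside HEMK1. A 150.4-fold peak lay 37.3 kb past the 3′ end, where C3orf18 and HEMK1 overlap, and a 72.1-fold peak beside it. The 150.4-fold summit is 53 bp from an annotated start and within 1 kb of an end of another coding gene.

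Distal peaks were those with a summit within 50 kb of a gene's ends that lay over 1 kb away from the ends of all coding genes. The 9 members had 215 distinct distal peaks. Their density stood above the median of all coding genes, 14.03 per 100 kb, at 7 of the 9 (50% of coding genes), and above the upper quartile of 19.9 at 5 (25%). SOCS1 (29.5 per 100 kb), SOCS3 (28.8), STAT5A (28.1) and STAT3 (28.0) were the densest, between the 94.8th and the 96.3rd percentile. CISH had 21.8, STAT5B 19.6, JAK1 14.5, SOCS2 13.4 and JAK2 7.5. The STAT values are not separate, because 19 distal peaks lay within reach of all 3 STAT genes and 16 more within reach of STAT5A and 1 other.

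Strong distal peaks were counted by role. Above 20-fold stood 21 of 104 around the inhibitors (20.2%), 8 of 67 around the STATs (11.9%) and 5 of 44 around the kinases (11.4%), beside 9.12% of all distal peaks in the list. CISH had the highest share, 7 of 23 (30.4%), followed by SOCS1 and SOCS3 with 6 of 30 each (20%). SOCS2 had 2 of 21 (9.52%). Some of these peaks lie at annotated starts inside gene spans: the 145.3-fold peak near CISH is 226 bp from a MAPKAPK3 start, and the 30.1-fold peak counted for the STATs is the one at the STAT5B start. Without the peaks within 1 kb of an annotated start, an alternative chosen after seeing the data, 20 of 102 stood above 20-fold around the inhibitors (19.6%), 7 of 66 around the STATs (10.6%) and 5 of 44 around the kinases, and CISH had 6 of 22 (27.3%). The share of 9.12% counts distal peaks at any distance from a gene and keeps those at annotated starts, so it is not a like share for these counts. Under 5-fold stood 134 of the 215, beside 64.4% of all distal peaks. At JAK1, STAT5A, STAT5B and SOCS1, 4 of the 9, the highest distal peak exceeded the end peak, which held for 52.7% of coding genes. Peaks around 1 gene share their region and are not independent, and no test was made.

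**Figure D3:**
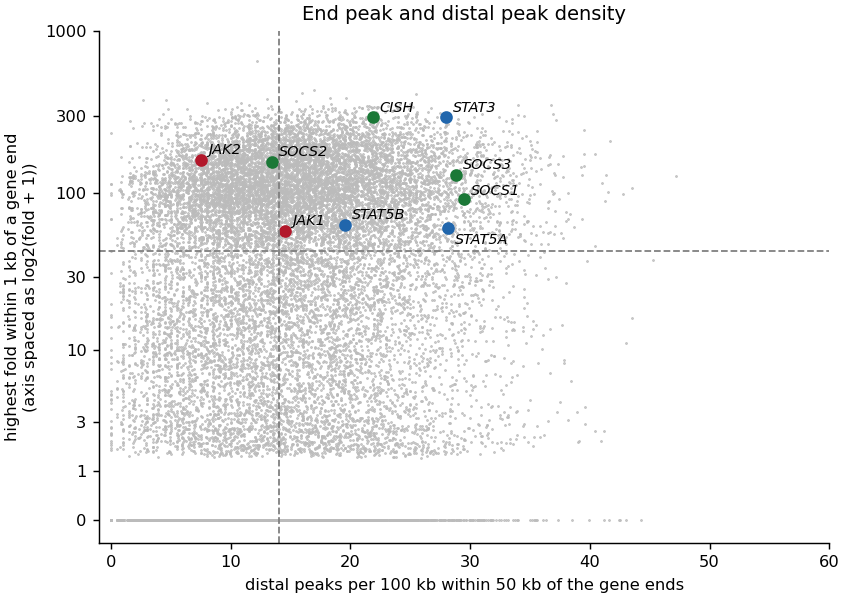
Highest fold within 1 kb of a gene end (axis spaced as log2(fold + 1)) against the number of distal peaks per 100 kb within 50 kb of the ends, for all coding genes (grey) and the 9 members (coloured by role: red kinases, blue STATs, green inhibitors); dashed lines are the medians of all coding genes. All 9 members lie above the median end fold, and JAK2 (7.5 per 100 kb) and SOCS2 (13.4) lie left of the median density.

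At the annotated starts, 15 of the 16 member starts lay under a peak, beside 79.6% of the starts of coding genes. The exception was the innermost start of JAK2. A summit within 1 kb was found for 14 of the 16 (77.8% of coding starts). The GC content of the 16 windows ran from 41.7% (second start of JAK1) to 82.0% (STAT5B, 98.4th percentile of coding windows). STAT5B had the highest GC content and, apart from starts without a summit within 1 kb, the lowest peak, 30.1-fold. STAT3 (65.3% GC) and CISH (70.3%) had the highest peaks. The members showed no single order of GC content and peak height, and with 16 starts of 8 genes that share peaks no relation was computed.

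**Figure D4:**
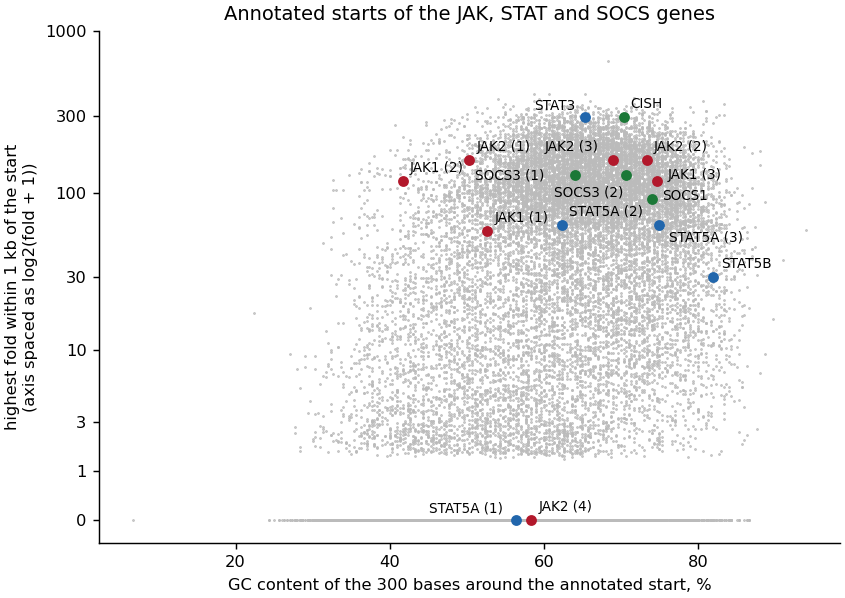
Highest fold of a summit within 1 kb of each annotated start (axis spaced as log2(fold + 1)) against the GC content of the RefSeq window around it, for all starts of coding genes (grey) and the 16 starts of 8 members (red kinases, blue STATs, green inhibitors; starts of a gene are numbered from its 5′ end). The innermost JAK1 start reaches 119.5-fold and the outer one 58.5-fold; the innermost start of JAK2 and the outermost of STAT5A have no summit within 1 kb.

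The remaining genes of the pathway were followed in lists. Of all coding genes, 83% had an end peak and 50% stood above their median of 43.5-fold. Of 10 other JAK, STAT and SOCS genes, 10 had an end peak and 9 stood above the median of coding genes, with a list median of 100.5-fold. STAT2, which acts in type I interferon signalling, led with 309.1-fold, followed by SOCS5 with 267.8 and TYK2, a kinase of interferon receptors, with 212.9. STAT4 (32.2), SOCS6 (44.8) and JAK3, the kinase paired with the common gamma chain of lymphocyte receptors (64.9), were lowest.

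Of 12 other regulators, 11 had an end peak and 10 stood above that median (list median 124.1-fold). SH2B3, an adaptor that restrains JAK2 in blood cells, had 336.8-fold, SH2B1 233.0 and the phosphatase PTPN1 170.1. PIAS2 had none, PTPRC had 30.9 and the phosphatase PTPN6 47.7, although a 166.9-fold peak with its summit farther away overlapped the 1 kb around an end of PTPN6. The 14 known STAT targets had a median of 105.1-fold, 13 with an end peak and 10 above the median of coding genes. BCL2L1 (260.9) and PIM1 (222.5), which promote survival, and IRF1 (172.8) were highest. JUNB had no summit there, CCND2 1.76 and CDKN1A 12.6, but peaks of 236.7, 92.3 and 118.8-fold with summits farther away overlapped the 1 kb around their ends. By overlap, 13 of the 14 STAT targets stood above the median of coding genes, then 56.1-fold. So did 10 of the 12 other regulators and 8 of the 10 other JAK, STAT and SOCS genes.

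Receptors and ligands stood lower than these lists. All 20 cytokine receptors had an end peak (83% of all coding genes did). Of the 20, 9 stood above the median of coding genes of 43.5-fold (50% did), with a list median of 39.0-fold. By overlap, 9 of the 20 also stood above the median, then 56.1-fold, with a list median of 50.3-fold. By summits, LEPR (246.2), the gp130 gene IL6ST (172.9) and IFNGR1 (118.4) were highest. A start of the gene LEPROT had the same 246.2-fold value, so that peak does not belong to LEPR alone. PRLR (5.17), OSMR (14.2) and EPOR (19.4) were lowest, although a 244.1-fold peak with its summit farther away overlapped the 1 kb around an end of EPOR. Of 15 cytokine ligands, 12 had an end peak by summits and 0 stood above 43.5-fold (list median 6.92-fold). THPO (36.3), OSM (29.1) and GH1 (27.0) were highest, and IFNG, IL3 and LEP had no summit within 1 kb of an end, although peaks of 10.7 and 44.0-fold overlapped those windows of IFNG and IL3. Overlap also gave CSF2 33.6-fold (4.73 by summit) and CSF3 63.0-fold (8.81 by summit), and by that measure 1 of the 15 ligands, CSF3, stood above the median of coding genes, then 56.1-fold. The lists hold genes of differing length and neighbourhood, and no list was tested.

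**Figure D5:**
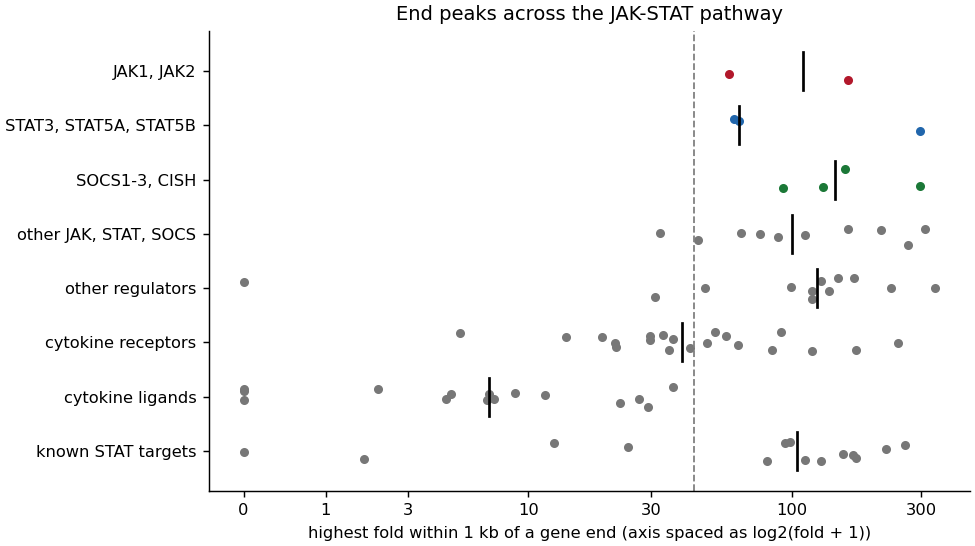
Highest fold within 1 kb of a gene end (axis spaced as log2(fold + 1)) for each gene of the pathway lists, 1 point per gene with random vertical spread; black ticks are list medians and the dashed line is the median of all coding genes, 43.5-fold. By summits, ligands lie at or under 36.3-fold, whereas each of the 9 members lies at 58.5-fold or above.

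The labelled cell type was set against markers. Of 8 blood progenitor markers, 6 had a summit at an end (83% of all coding genes did), from CD34 (14.8-fold) to SPI1 (108.7-fold). Of these 8, 3 stood above the median of coding genes of 43.5-fold and 0 above the upper quartile (list median 34.4-fold). Peaks of 54.9 and 104.7-fold overlapped the 1 kb around the ends of GATA2 and TAL1. By overlap, 4 of the 8 stood above the median of coding genes, then 56.1-fold (list median 57.4-fold). Of 5 pluripotency markers, 3 had a summit at an end, with POU5F1 at 1.93, NANOG at 2.42 and SOX2 at 17.6-fold. DPPA2 and DPPA4 had none. SOX2 thus stood above CD34, and 0 of these 5 stood above 43.5-fold. Of 5 hepatocyte markers, APOA1 reached 57.6-fold, ALB and AHSG had none, and TTR and SERPINA1 had 2.41 and 6.31-fold (52.4-fold by overlap at SERPINA1). Accessibility at a promoter does not measure expression, and the share of other cell types in the cultures was not tested.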

How the data were processed

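The sources analysed were a pooled ATAC-seq peak list and the labels of 35 libraries. Per the labels' protocols, each library used 50000 cells or nuclei, transposition ran for 45 minutes and reads were paired, 75 bases long. Per the submitters' processing notes, the tools were Bowtie2 2.2.8, Picard 2.2.4 and Trim Galore 0.6.5, and MACS 2.1.0 and GENCODE 36 per the deposited peak names. How the steps were ordered, whether duplicates were removed, whether reads were shifted for the enzyme and which libraries were pooled are not given in the sources used here. The authors' list gives, for each peak on GRCh38, a score, a linear fold enrichment, a −log10 p-value, a −log10 q-value and a summit. The score and the q-values were not used. A constant background of 93.5 was recovered from fold and p: of 243585 pileups under 1000, 100% came out whole within 0.1. It does not correct for local differences in mappability or copy number. Depth per library is unknown.

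Gene spans were those RefSeq gives for GRCh38.p14 (59098 genes) and starts from RefSeq promoter windows, held for 15812 of 19974 coding genes. Chromosome coordinates do not differ between the patch releases. Python 3.11.15, numpy 2.4.6, pandas 2.3.3, scipy 1.17.1 and matplotlib 3.10.9 were used, and the counting steps were tested on simulated data. No test between genes or roles was made. Ratios of 2 peaks carry exact conditional binomial (Clopper-Pearson) 95% intervals. Named genes are the 9 members, the 3 highest and up to 3 lowest genes of each pathway list, the markers, and genes sharing a member's end peak or holding its highest distal peak. HEMK1, CAVIN1, RAB5C, PGS1, SOCS2-AS1, LEPROT and the genes of the STAT-rich windows were named after their values were seen. The members and lists were chosen with earlier results of these data known.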

Additional observations from a re-analysis of the deposited data

How the results depend on the processing

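The end measure depends on the window. With 0.5 kb in place of 1 kb, 4 of the 9 members kept a summit (72.6% of coding genes did) and 4 stood above the median. The median then fell to 0 for the kinases and 46.5-fold for the inhibitors. JAK1, JAK2, STAT5A, SOCS2 and SOCS3 lost their summit there, although their peaks still overlap an end. With 2.5 kb windows, any overlap of at least 1 bp, or the more significant 50% of the peaks, all 9 members kept an end peak above the median and the medians by role did not move. With annotated starts in place of ends, an alternative chosen after seeing the data, all 8 members with an entry had a summit and 7 stood above the median of 56.2-fold. STAT5B, at 30.1-fold, did not. The medians were then 140.7-fold for the kinases and 130.9-fold for the inhibitors without SOCS2, the opposite order to that by ends. Distinct distal peaks numbered 87 within 20 kb, 383 within 100 kb and 109 with the more significant 50% of the peaks, while 6 or 7 members stood above the median density under each alternative. No paired analysis was possible because the list holds no value per library. A pooled list without replicates limits every value to counting error, and weak peaks depend on the pooled depth.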

Other observations

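Few promoter windows held as many STAT motifs as that of CISH. Besides CISH, the windows of coding genes with 3 or more matches to TTCNNNGAA belonged to BCL6, IL3RA, ZNF112, ZNF225 and ZNF230. BCL6, a transcriptional repressor of germinal centre B cells and 1 of the STAT targets listed here, held 4 matches before a start with a 94.4-fold peak. IL3RA, the alpha chain of the interleukin-3 receptor, held 3 at a start with a 29.5-fold peak. ZNF225 and ZNF112 held 4 and ZNF230 held 3, at starts with peaks of 160.5, 58.6 and 102.8-fold, and ZNF112 was counted for 2 overlapping windows. All 7 windows had a start under a peak, beside 79.6% of the starts of coding genes. Of windows with a start under a peak, 6.06% held the motif at least once, beside 6.79% of all windows. The genes named here were picked out after the motif counts were seen.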
